A study of Mus musculus with 8 samples.

Results

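*Grb10* and 9 other imprinted genes that lie outside the distal chromosome 7 and Dlk1-Meg3 clusters, *Igf2r*, *Peg3*, *Peg10*, *Sgce*, *Mest*, *Snrpn*, *Plagl1*, *Impact* and *Zim1*, were followed in embryonic stem (ES) cells during expansion in culture. They were taken by symbol, 10 of the 23337 gene names in the count table, and *Grb10* was selected on its normalized counts in these libraries, which were lower at passage 16 than at passage 6 in every clone. The series holds RNA sequencing of 4 independent ES cell clones, numbered 6, 20, 30 and 36, each with 1 library at passage 6 and 1 at passage 16, so that there were 4 libraries per passage and 8 in all. The labels give all 8 cultures strain 129S1, a wild-type genotype and growth in DMEM with LIF, while the methods name ES cells of both C57BL6 and 129S1 background without saying which were sequenced. The lines came from blastocysts that express GFP from the Rosa26 locus. A clone is a single line, each clone was sequenced once per passage, and clone 20 and clone 30 expressed Y-linked genes (summed normalized count of 4 genes 4536 to 5366) whereas clone 6 and clone 36 did not (2.05 to 14.2). Differences between clones therefore cannot be told apart from differences between the embryos they came from.

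An imprinted gene is transcribed mainly from the copy inherited from one parent. The mark that sets the copies apart is DNA methylation laid down in the germ line at a control region, and it is kept through the cell divisions of the early embryo by the zinc-finger protein ZFP57 and its partner TRIM28. Imprinted genes are dosage sensitive, many act on fetal growth, and mouse ES cell lines are known to lose or gain methylation at some of them in culture. RNA counts of this kind add up both parental copies, and the copy in use was not measured.

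The libraries held 21394069 to 34295561 reads assigned to genes. Because lines of the deposited table can be shifted against their names within a library, the register of the rows was examined before any value was read. In an alphabetical order of names and values, 2 neighbouring pairs were out of order in clone 6 at passage 6 and 130 to 220 in each of the other 7 libraries, and in each library all but 2 of those that were out of order fell among related names, where a longer name starts with the whole of a shorter one and goes on with a digit. There were 650 such groups, called displaced groups here, and they held 5092 names (21.8%). None of the 10 imprinted genes was in a group (0 of 10) and 0 of the displaced pairs touched one, so that their values stood beside the right names in all 8 libraries by this check. Genes of other lists that were in a group were left without a value. The cultures carried their labelled identity: 6 ES cell markers summed to 69279 to 71897 normalized counts at passage 6 and 70601 to 76010 at passage 16. Markers of primitive endoderm, the other lineage of the inner cell mass, were the more variable: 7 of 9 listed genes summed to 9703 to 36193 at passage 6 and 7726 to 26995 at passage 16.

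*Grb10* encodes an adaptor protein that binds the insulin and IGF1 receptors, restrains signalling from them and limits growth. It lies on the minus strand of chromosome 11 (GRCm38, chr11:11930499-12037428) and shares no exon bases with another annotated gene. In most tissues the maternal copy is used, from the upstream promoter, while neurons use the paternal copy from start sites inside the gene. RefSeq lists an upstream and an internal start, without saying in which tissue each is used. The gene counts add up all starts, so the windows of both are shown (GRCm38.p6, 250 bases before to 50 after the start, minus strand), for the upstream start at chr11:12037371-12037670 and the internal start at chr11:12027922-12028221. Capitals mark TGCCGC or its reverse complement GCGGCA, the 6-letter sequence that ZFP57 recognizes when it is methylated.

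Grb10, upstream start: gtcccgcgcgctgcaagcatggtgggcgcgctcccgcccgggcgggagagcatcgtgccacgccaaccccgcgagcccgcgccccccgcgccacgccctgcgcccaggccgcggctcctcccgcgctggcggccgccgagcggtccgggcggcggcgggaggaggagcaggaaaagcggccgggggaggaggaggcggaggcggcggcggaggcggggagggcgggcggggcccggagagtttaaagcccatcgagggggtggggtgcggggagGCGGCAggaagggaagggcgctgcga
Grb10, internal start: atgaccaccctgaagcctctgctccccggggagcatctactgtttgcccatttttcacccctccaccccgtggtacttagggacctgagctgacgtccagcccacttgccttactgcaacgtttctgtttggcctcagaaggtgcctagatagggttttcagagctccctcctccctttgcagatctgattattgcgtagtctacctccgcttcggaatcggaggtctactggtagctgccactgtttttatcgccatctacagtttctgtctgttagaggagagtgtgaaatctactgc

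The upstream window held 45 CpG dinucleotides in 300 bases at 80.0% G and C, with 1 copy of the 6 letters. The internal window held 9 CpG dinucleotides at 52.3% G and C, with no copy. Among 32851 RefSeq windows of the same length the median was 7 CpG dinucleotides, and 11.6% held the 6 letters on either strand.

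In passage 6 cells the normalized *Grb10* count was 7437 in clone 6, 6170 in clone 20, 3389 in clone 30 and 1535 in clone 36. In passage 16 cells it was 4365, 2974, 2083 and 1342 in the same order of clones. Each clone had a lower count at the later passage, and the order of the clones was the same, but the passages overlapped because clone 6 at passage 16 was still above clones 30 and 36 at passage 6. The ranges of the passages were apart in 2.43% of the 14791 names tested. The mean was 4633 ± 2669 (SD, n = 4 clones) at passage 6 and 2691 ± 1300 at passage 16. The passage 16 count was 0.587 of the passage 6 count in clone 6, 0.482 in clone 20, 0.615 in clone 30 and 0.875 in clone 36. On the log2(value + 1) scale, with passage 6 taken from passage 16 within each clone, the mean difference was -0.68 ± 0.36 (SD, n = 4 clones), a ratio of 0.625. The difference was thus sizeable in 3 clones and small in clone 36, which started lowest. Since *Grb10* was singled out by this pattern, no test was attached to it. The pattern also rests on the clone numbers of the labels. Across names outside the displaced groups, the passage 6 library of clone 6 deviated less like the passage 16 library of clone 6 (Pearson r = 0.0956) than like that of clone 36 (0.281), and both clones lack Y-linked RNA. If the passage 16 libraries of these clones were exchanged, *Grb10* would go from 1535 to 4365 in clone 36 and would not be lower in every clone. The exchange would also join clone 36 of passage 6 to clone 6 of passage 16 (r = -0.0095), against 0.433 as labelled. The passage 16 library of clone 6 had raised chromosome 6 counts as well, as given below. Whether libraries were exchanged was not tested. In bulk RNA a smaller share of expressing cells and less RNA per cell cannot be told apart.

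**Figure D1:**
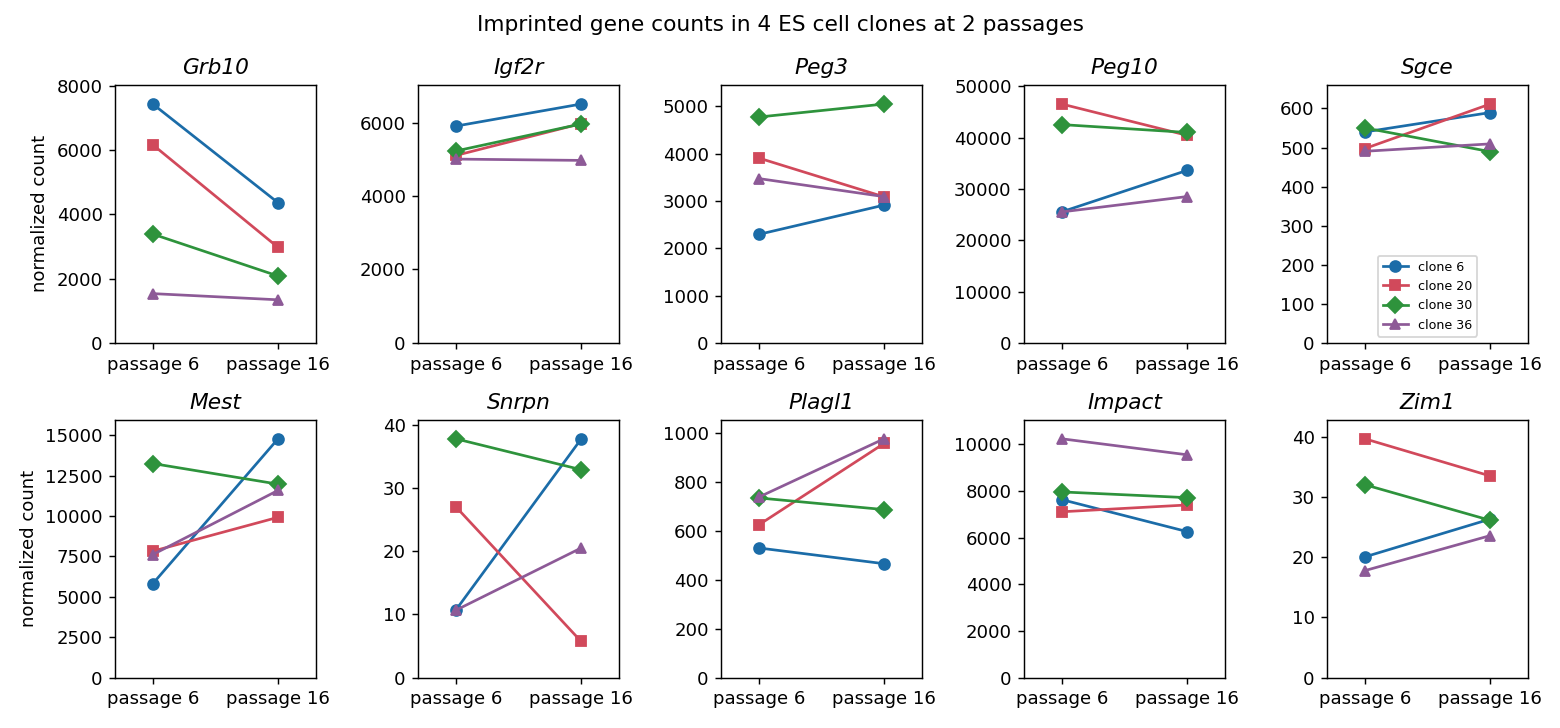
Normalized count (y axis, from 0, a different scale in each panel) of the 10 imprinted genes at passage 6 and passage 16, with 1 point per library and a line joining the 2 libraries of a clone. All 4 *Grb10* lines slope down, from 1535 to 7437 at passage 6 to 1342 to 4365 at passage 16, while the lines of the other 9 genes slope both ways.

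*Grb10* was 1 of the 10 genes that was lower in 4 of 4 clones, a pattern seen in 9.42% of the 14791 names with a mean count of at least 10. No member was higher in 4 of 4 clones, against 7.81% of all names. *Impact* came nearest, lower in 3 clones (log2 differences of -0.29, -0.05 and -0.10) and higher in clone 20 (0.06). Of the 12282 tested names outside the displaced groups, *Grb10* had the mean log2 difference of rank 114 from the lowest. This rank only describes the choice, since the gene was singled out on the same difference. The median of the 10 members was 0.08, beside -0.004 for all names. With 1 library left out, the fit had no clone term, so the 2 passage means came from unlike sets of clones. The *Grb10* difference then lay at -1.13 without clone 36 of passage 6 and at -0.37 without clone 6 of passage 6. It lay at -0.46 without clone 20 of passage 6 and at -0.39 without clone 36 of passage 16. These values mix the passage difference with the differences between clones. Leaving out a whole clone, which keeps the pairs, gave -0.84 to -0.55. Across all names, limma (two-sided, no clone term) called 1 of 14791 names changed with passage (0.00676%) and 0 of 12282 outside the displaced groups, where 436 had an unadjusted p under 0.05. With the clone as a block it called 0. On the recovered reads, DESeq2 with its own filter called 46 of 15788 names (0.291%), and edgeR called 1 of 14791.

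The summed primitive endoderm markers were also lower at passage 16 in 3 of the 4 clones: 20212 and 11829 in clone 6, 9703 and 7726 in clone 30, and 36193 and 21452 in clone 36. In clone 20 they were higher, 16252 and 26995, and this was the clone with the largest *Grb10* difference. Clone 36 at passage 6 had the most primitive endoderm RNA and the second lowest *Grb10* count of all. The 10 fibroblast markers, which would report feeder cells, summed to 3877 to 5953 in the passage 6 libraries and to 4514 to 5971 in those of passage 16, were lower in 2 of 4 clones, and *Lum* among them was at 0 in a library. Trophoblast markers (6 genes) summed to 2224 to 3296 and 2572 to 4075 and were lower in 0 clones. Neural markers (4 genes) were lower at passage 16 in the 3 clones with the larger *Grb10* differences, 3137 and 1919 in clone 6, 4362 and 3335 in clone 20 and 2858 and 2164 in clone 30, and higher in clone 36 (2573 and 3175). Mesendoderm markers (3 genes) summed to 144 to 285 at passage 6 and 146 to 352 at passage 16. The part of these cell types in the *Grb10* difference was not tested.

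Next, the clones were compared with each other, a contrast other than the one that singled out *Grb10*. It is not independent of that choice, because its passage term takes out the passage difference on which *Grb10* was chosen. The mean *Grb10* count of the 2 passages was 5901 in clone 6, 4572 in clone 20, 2736 in clone 30 and 1439 in clone 36, a range of 1.99 on the log2 scale. The range between clones was thus larger than the difference between passages in each clone. The moderated F test of limma, with passage as a covariate, gave a Benjamini-Hochberg adjusted p of 0.170 over 14791 names, and so did not call it. When the names in displaced groups were left out of the fit, the adjusted p of this F test was 0.0265 over 12282 names. The unadjusted p of *Grb10* in the F test was itself lower, 6.17e-05 in place of 8.87e-04. On recovered reads edgeR gave 0.218 and DESeq2 3.03e-16. The limma test over all tested names but without the passage term gave an adjusted p of 0.429. The call for *Grb10* thus depended on the names tested and on the tool. Its range between clones exceeded that of 98.9% of the names outside the displaced groups, whose median range was 0.31.

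*Grb10* was also the 1 member with the same order of the 4 clones at both passages, 6 above 20 above 30 above 36, an arrangement that 6.94% of all tested names shared (6.99% outside the displaced groups). The other members had clone ranges of 0.17 for *Sgce* to 1.40 for *Snrpn*, and the median of the 10 was 0.73. At an adjusted p under 0.05, limma called 0 of 10 members (0.135% of all names), 1 of 10 with the displaced groups left out (0.505% of names) and edgeR 0 of 10 (0.101%). DESeq2 called 4 of 10 (7.74% of the 14486 names it tested): *Grb10*, *Peg3* (7.04e-04), *Peg10* (1.89e-04) and *Impact* (1.37e-04). An unadjusted p under 0.05 was reached by 5 of 10 members in the limma fit, where 10.7% of all names reached it, and by 6 of 10 with the displaced groups left out (14.1% of names).

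**Figure D2:**
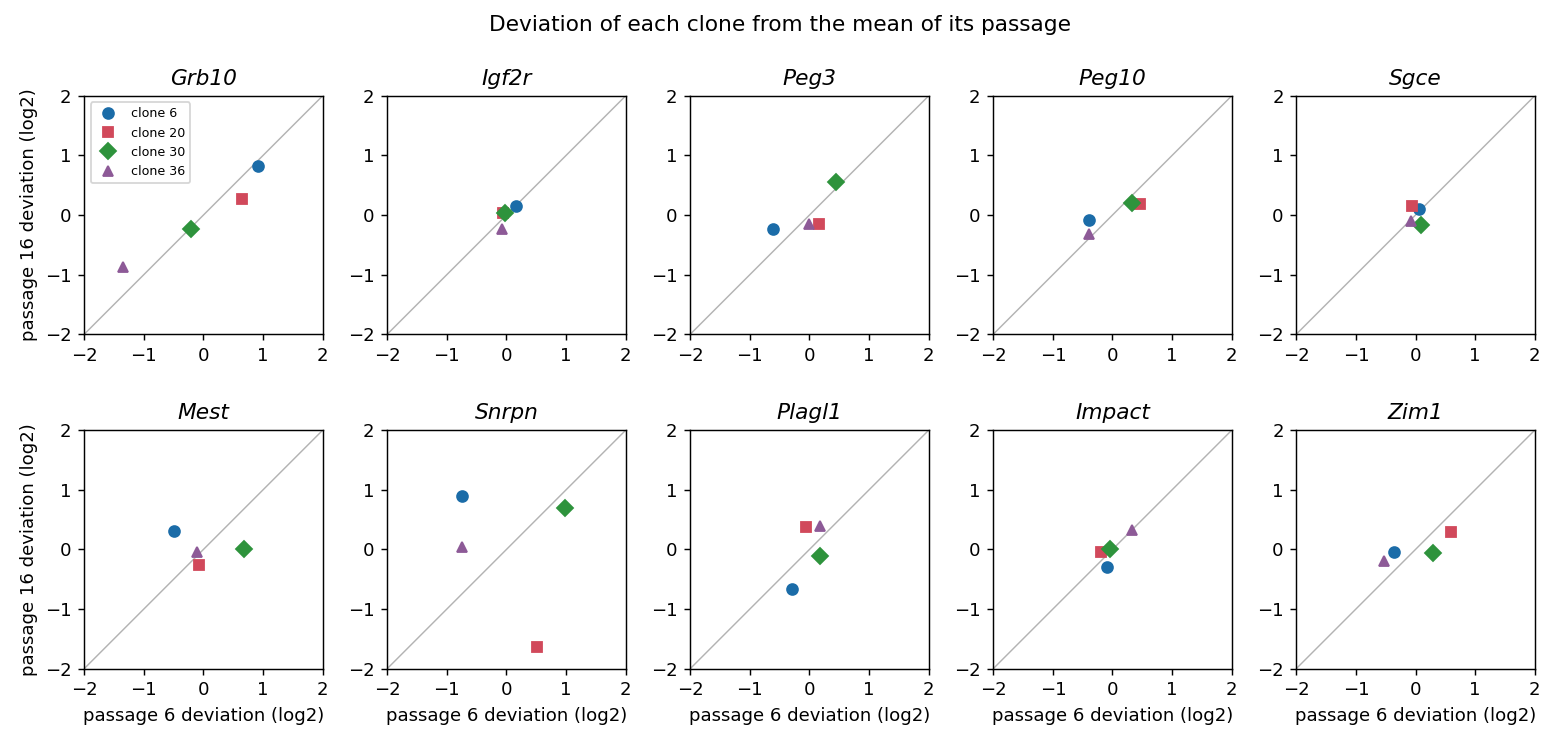
Deviation of each clone from the mean of the 4 clones, on the log2(value + 1) scale, at passage 6 (x axis) and passage 16 (y axis), with 1 panel per gene, 1 point per clone and a grey line of equality. The *Grb10* points rise along the line over a range of 1.99 in clone means, the *Sgce* points have the narrowest range of clone means (0.17), and the *Snrpn* points scatter off the line.

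The levels of the genes were set side by side as normalized counts per kilobase of annotated exon, averaged over the 8 libraries. *Peg10* was highest at 5324 (range over libraries 3831 to 6986), followed by *Mest* at 2623 (1474 to 3747) and *Impact* at 1555 (1219 to 1994). *Igf2r* at 600 (534 to 699), *Grb10* at 403 (148 to 818) and *Peg3* at 268 (172 to 379) formed the middle, and *Plagl1* at 91.2 (59.5 to 125), *Sgce* at 50.4 (46.1 to 57.6), *Snrpn* at 10.6 (2.66 to 17.5) and *Zim1* at 3.38 (2.20 to 4.90) came last. In this order the ranges of *Mest* and *Impact*, of *Igf2r* and *Grb10*, of *Grb10* and *Peg3*, and of *Snrpn* and *Zim1* overlapped, and the other neighbours did not.

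*Igf2r*, on chromosome 17 (chr17:12682406-12769706, minus strand), encodes the receptor that clears IGF2 and sends it to the lysosome, and is a maternally expressed growth suppressor like *Grb10*. Its passage 6 counts were 5906, 5107, 5229 and 5008 in clones 6, 20, 30 and 36, and its passage 16 counts were 6507, 5974, 5965 and 4972. It was among the steadiest of the 10 genes: the mean log2 difference was 0.14 ± 0.10 (SD, n = 4 clones), higher in 3 clones and level in clone 36. The clones spanned 0.31 on the log2 scale, with an adjusted p of 0.457 by limma. *Airn*, the antisense RNA that silences the paternal *Igf2r* domain, was at 4.39 to 14.3 normalized counts and was below the minimum for testing.

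*Zim1* is the other member expressed from the maternal copy. It lies on chromosome 7 beside *Peg3* (chr7:6674444-6696540 and chr7:6703892-6730462, both minus strand), encodes a zinc-finger protein and was hardly transcribed: 20.04, 39.64, 32.02 and 17.77 normalized counts at passage 6 and 26.3, 33.5, 26.1 and 23.6 at passage 16. *Peg3*, the paternally expressed zinc-finger gene of the same domain, had 2294, 3907, 4775 and 3474 at passage 6 and 2913, 3088, 5049 and 3092 at passage 16. Clone 30 was highest in *Peg3* at both passages and clone 6 lowest at both. The passage difference of *Peg3* went up in clones 6 and 30 and down in clones 20 and 36, with a mean log2 difference of -0.02 ± 0.30 (SD, n = 4 clones). That of *Zim1* went up in clones 6 and 36 and down in clones 20 and 30 (0.06 ± 0.37). *Peg3* spanned 0.93 between clone means (limma adjusted p = 0.402). *Zim3*, a further gene of this domain, had 16.2 to 26.3 normalized counts at passage 6 and 26.8 to 32.9 at passage 16, higher in 4 of 4 clones.

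*Peg10* and *Sgce* are transcribed in opposite directions from a shared start region on chromosome 6 (chr6:4747306-4760517, plus strand, and chr6:4674350-4747204, minus strand). *Peg10* derives from a retrotransposon and is needed for placenta formation, and *Sgce* encodes epsilon-sarcoglycan, a membrane protein. *Peg10* ranked 53 among the 14791 names by mean count, with 25563, 46578, 42571 and 25544 at passage 6 and 33643, 40474, 41040 and 28540 at passage 16. Clones 20 and 30 were above clones 6 and 36 at both passages, the same split as that of Y-linked RNA. With so few clones, this split cannot be told apart from other differences between the clones. *Sgce* had 540, 497, 550 and 490 at passage 6 and 589, 611, 489 and 509 in passage 16 cells, with the narrowest clone range of the 10 genes (0.17). Although they share a start region, their log2 values had a Pearson correlation of only 0.14 over the 8 libraries, which come from 4 clones and so are not independent. The mean log2 passage difference was 0.08 ± 0.26 for *Peg10* and 0.08 ± 0.19 for *Sgce* (SD, n = 4 clones).

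*Mest* (chr6:30733506-30748466, plus strand) encodes an alpha/beta-hydrolase-fold protein of mesoderm and growing adipose tissue and is expressed from the paternal copy. RefSeq lists an upstream and an internal start for it too, and they are shown for the same reason (RefSeq, GRCm38.p6, plus strand, chr6:30733256-30733555 and chr6:30737800-30738099), with capitals as above.

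Mest, upstream start: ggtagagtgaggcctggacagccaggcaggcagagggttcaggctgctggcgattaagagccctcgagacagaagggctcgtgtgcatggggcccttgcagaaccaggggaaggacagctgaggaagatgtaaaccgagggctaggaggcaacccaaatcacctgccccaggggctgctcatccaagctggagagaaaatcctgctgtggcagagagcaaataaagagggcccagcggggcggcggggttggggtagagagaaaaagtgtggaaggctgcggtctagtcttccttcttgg
Mest, internal start: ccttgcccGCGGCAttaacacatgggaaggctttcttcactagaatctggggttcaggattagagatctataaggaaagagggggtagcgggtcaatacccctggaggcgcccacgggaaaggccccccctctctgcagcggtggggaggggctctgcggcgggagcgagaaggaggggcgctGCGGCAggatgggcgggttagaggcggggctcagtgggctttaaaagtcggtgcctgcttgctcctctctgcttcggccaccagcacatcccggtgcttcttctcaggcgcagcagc

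The upstream window of *Mest* held 8 CpG dinucleotides and no copy of the 6 letters, and the internal window held 17 and 2 copies. In all, RefSeq had 13 windows for 7 of the members (*Grb10*, *Igf2r*, *Peg3*, *Mest*, *Snrpn*, *Plagl1* and *Zim1*). A copy was present in 6 of the 13 windows, beside 11.6% of all windows. It was present in 5 of the 7 genes, for which no share over all genes was taken. These counts were not adjusted for CpG content, which ran from 2 to 45 dinucleotides in the member windows beside a median of 7. Some of these windows overlap, and a match is a run of letters and not a measured binding site.

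*Mest* had 5817, 7828, 13253 and 7618 normalized counts at passage 6 and 14784, 9925, 11976 and 11590 at passage 16. It had the largest mean difference of the members toward higher counts, 0.54 ± 0.62 on the log2 scale (SD, n = 4 clones), with clone 6 at 2.54 times its passage 6 count, clone 36 at 1.52 times, clone 20 at 1.27 times and clone 30 at 0.904 times. Without clone 6 the mean difference was 0.27. In the annotation, 23.1% of the exon bases of *Mest* overlap *Copg2* on the opposite strand, and whether the authors counted by strand is not given in the sources used here.

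*Peg10*, *Sgce* and *Mest* are on chromosome 6, and in clone 6 the median of that chromosome was shifted. Whether the shift ran along the whole chromosome was not examined. The median log2 passage difference of 432 names on chromosome 6 was 0.28 in clone 6, and 0.02, -0.02 and 0.05 in clones 20, 30 and 36. Relative to this median, the clone 6 difference was 0.12 for *Peg10*, -0.15 for *Sgce* and 1.07 for *Mest*. The difference of *Mest* in clone 6 thus went well beyond the median of its chromosome, that of *Peg10* lay slightly above this median and that of *Sgce* below it. Chromosome 11, which holds *Grb10*, had medians between -0.01 and 0.01 in the 4 clones, and the *Grb10* differences relative to it were -0.77, -1.05, -0.70 and -0.18.

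**Figure D3:**
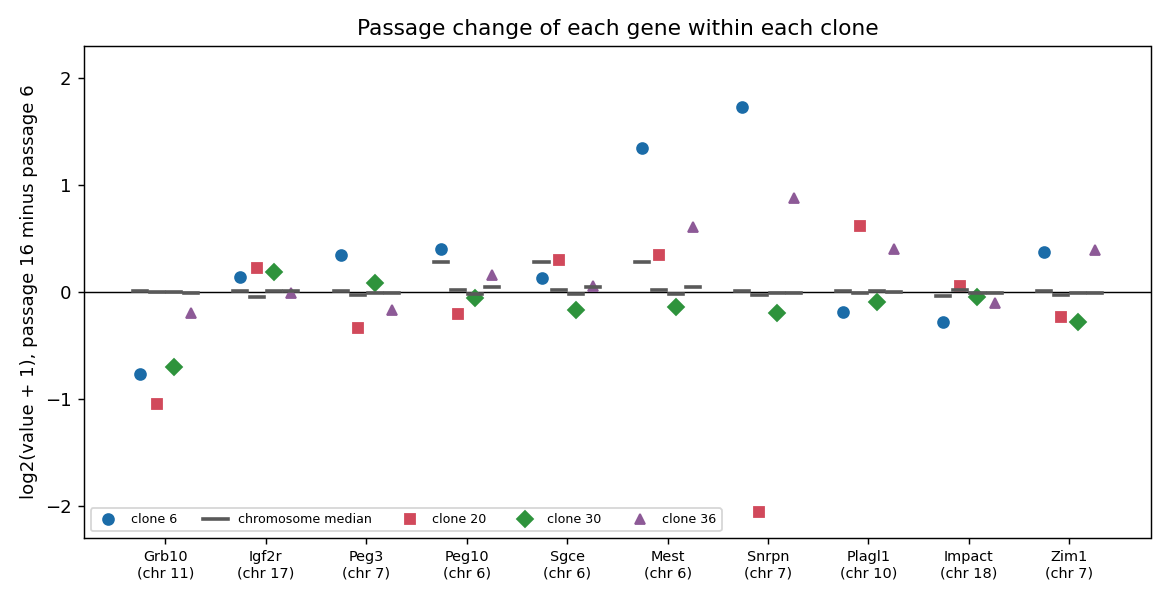
Log2(value + 1) at passage 16 minus passage 6 (y axis) for each gene (x axis, with its chromosome), 1 point per clone, and a grey bar at the median difference of that chromosome in the same clone. The medians were taken over names with a mean of at least 100 outside the displaced groups, without the members. *Grb10* lies below 0 in all 4 clones (-1.05 to -0.19) with its chromosome medians near 0, and the chromosome 6 median of clone 6 lies at 0.28.

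**Figure D4:**
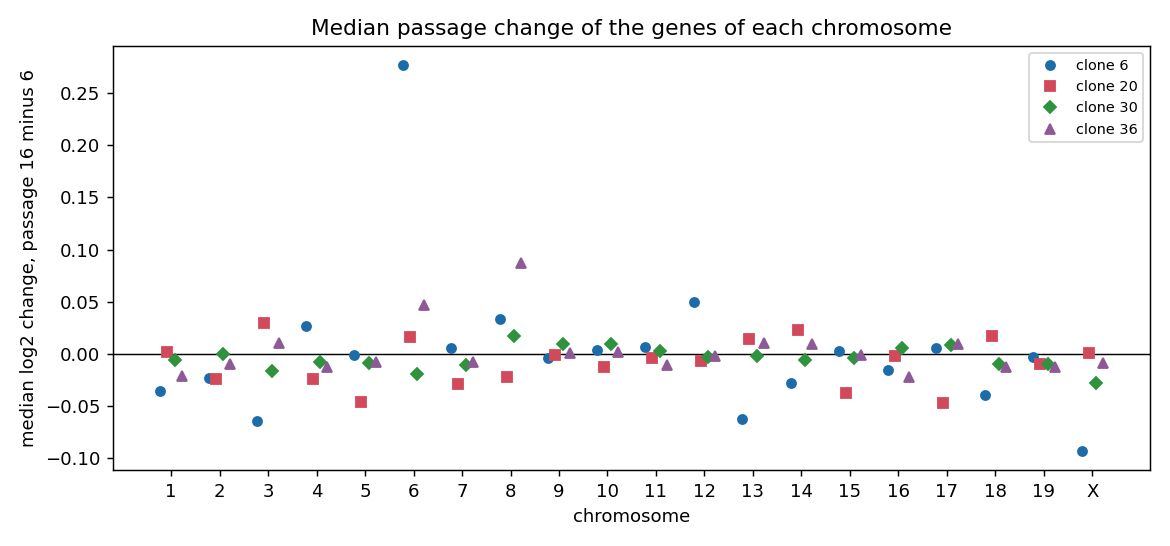
Median log2 difference, passage 16 minus passage 6 (y axis), of the genes of each chromosome (x axis), with 1 point per clone. The genes were those with a mean of at least 100 outside the displaced groups, without the members. Chromosome 6 of clone 6 stands at 0.28, away from the other points, and chromosome 11 lies near 0 in all 4 clones.

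*Plagl1*, *Impact* and *Snrpn* are paternally expressed. *Plagl1* (chr10:13090832-13131694, plus strand) encodes a zinc-finger transcription factor that arrests the cell cycle, and had 529, 623, 733 and 737 normalized counts at passage 6 and 465, 956, 686 and 975 at passage 16. Clone 6 was lowest at both passages, and clones 20 and 36 were 1.53 and 1.32 times their passage 6 counts. Its mean log2 difference was 0.18 ± 0.39 (SD, n = 4 clones) and its clone range 0.77 (limma adjusted p = 0.477).

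*Impact*, on chromosome 18, encodes an inhibitor of the eIF2-alpha kinase GCN2. It had 7622, 7102, 7952 and 10227 normalized counts at passage 6 and 6254, 7393, 7707 and 9542 at passage 16. Clone 36 was highest at both passages. The mean log2 difference was -0.09 ± 0.14 (SD, n = 4 clones), and the clone range was 0.52 with an adjusted p of 0.363 by limma.

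*Snrpn* (chr7:59982495-60450177, minus strand) encodes a small nuclear ribonucleoprotein subunit and is a main transcript of the region lost in Prader-Willi syndrome. It was counted at 10.7, 27.0, 37.8 and 10.7 at passage 6 and 37.7, 5.74, 32.9 and 20.5 at passage 16. No clone order or direction was shared between passages, and the log2 differences ran from -2.06 in clone 20 to 1.73 in clone 6. These low values carry a limit of annotation: in GENCODE, 27.3% of the exon bases of *Snrpn* are shared on the same strand with *Snurf* and another model. Reads that fall in shared bases may have been left out by the counting. The authors counted on the UCSC annotation, for which the shared bases were not measured. *Snurf* itself was at 0 to 1.18. Of the other genes of this domain, *Ube3a*, a ubiquitin ligase, was lower in 4 of 4 clones (2096 to 2747 at passage 6 and 1687 to 2526 at passage 16), and *Ndn*, *Magel2*, *Mkrn3* and *Peg12* had mean log2 differences of 0.20, -0.36, 0.03 and 0.39.

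Of 21 neighbours that share an imprinted domain with a member, 19 were in the table and 12 could be tested. Limma called 0 of the 12 with passage and 0 between clones, against 0.00676% and 0.135% of all names. *Ddc*, the gene next to *Grb10*, which encodes the decarboxylase that makes dopamine and serotonin, had 457, 368, 633 and 573 normalized counts at passage 6 and 553, 600, 664 and 605 at passage 16. *Ddc* was higher in 4 of 4 clones, the opposite of *Grb10*, with a mean log2 difference of 0.28 ± 0.30 (SD, n = 4 clones). In all, 2 of the 12 (*Ddc* and *Zim3*) were higher in 4 of 4 clones, against 7.81% of all names. Of the 12, 1 (*Ube3a*) was lower in 4 of 4 clones, against 9.42% of all names. *Calcr*, listed with the *Peg10* domain, had a mean difference of -0.37 ± 0.39, and the median of the 12 was 0.05. Of 18 further dispersed imprinted genes 15 could be tested, and 0 were called with passage or between clones, beside the same shares of all names. *Sfmbt2* (-0.20) and *Blcap* (-0.16) were lower in 4 of 4 clones, 2 of 15 (13.3%), against 9.42% of all names. *Zrsr1* (0.10) and *Trappc9* (0.06) were higher in 4 of 4 clones, 2 of 15, against 7.81% of all names. The median of the 15 was 0.04.

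Genes that establish or keep methylation were examined as well, 21 of 24 listed, with *Zfp57*, *Trim28* and *Prdm14* left out because their rows lie in displaced groups. Limma called 0 of the 21 with passage, and their median log2 difference was -0.12 beside -0.004 for all names. The methyltransferase genes *Dnmt3a*, *Dnmt3b* and *Dnmt3l*, the dioxygenase gene *Tet2*, *Zfp445*, which like *Zfp57* acts at imprinted control regions, and the chromatin remodeller *Atrx* were lower in 4 of 4 clones, 6 of 21 (28.6%), against 9.42% of all names. This list, like the others, was chosen with earlier results of these data known, and the difference between the shares was not tested. The share over all names also counts names in displaced groups, which the list leaves out. *Dnmt3b* had 9738, 12339, 13195 and 9499 normalized counts in passage 6 cells and 7382, 6693, 10843 and 6961 later, a mean log2 difference of -0.50 ± 0.26. *Zfp445* showed the least spread, -0.30 ± 0.03 (SD, n = 4 clones). The genes for maintenance methylation, *Dnmt1* (0.04 ± 0.19) and *Uhrf1* (0.05 ± 0.18), and *Dppa3*, which protects maternal methylation in the early embryo (0.20 ± 0.32), went both ways among clones. Between clones *Atrx* differed once the displaced groups were left out (limma adjusted p = 0.00772, and 0.0640 with them), with the lowest counts in clone 30, 5384 and 3946, and 8242 to 12655 in the other clones.

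Genes of the insulin and IGF pathway, on which the GRB10 protein acts, gave no call in 22 of 23 listed genes with either test of limma (0 of 22). The receptor genes differed little with passage: *Insr* had a mean log2 difference of 0.09 ± 0.02 (SD, n = 4 clones) and *Igf1r* had 0.04 ± 0.07. *Insr* was higher in 4 of 4 clones, 1 of 22, against 7.81% of all names. *Irs2* (-0.28 ± 0.19), an adaptor that transmits the receptor signal, *Grb7* (-0.33 ± 0.31), a relative of *Grb10*, *Shc1* (-0.11 ± 0.07) and the kinase gene *Rps6kb1* (-0.16 ± 0.11) were lower in 4 of 4 clones, 4 of 22 (18.2%), against 9.42% of all names. The median of the 22 was -0.02.

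Among imprinted genes of the distal chromosome 7 and Dlk1-Meg3 clusters, limma called 1 of 15 between clones, *Meg3* (adjusted p = 0.00896), against 0 of 10 members. With the displaced groups left out it called 6 of 15 (*H19*, *Cdkn1c*, *Kcnq1ot1*, *Meg3*, *Rian* and *Mirg*), against 1 of 10 members and 0.505% of names. These 6 genes lie in linked clusters and are not independent of each other. The difference between these counts was not tested. *Cdkn1c*, *Kcnq1ot1* and *Phlda2* were lower at passage 16 in 4 of 4 clones, 3 of 15 (20%), against 9.42% of all names. *H19* was higher in 4 of 4 clones, 1 of 15, against 7.81% of all names. *Meg3* was at 2343 and 2208 in clone 36 and at 5842 to 7186 in the other clones, so that clone 36 was lowest in *Meg3* as in *Grb10*.

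The names whose log2 counts followed *Grb10* most closely over the 8 libraries were ranked among 9443 names with a mean of at least 100 outside the displaced groups. They were *Crebbp* (Pearson r = 0.91), *Adam17* (0.90), *Capg* (0.89), *Ppfia3* (0.88), *Wbscr27* (0.86), *Serhl* (0.86), *E2f6* (0.85), *AI413582* (0.85), *Fndc4* (0.84) and *Sertad1* (0.84), and 1 of 9443 exceeded 0.9. *Crebbp*, the acetyltransferase gene at the top, varied over only 0.21 on the log2 scale and *Wbscr27*, the most variable of the 10, over 0.60. These 8 libraries are pairs from 4 clones, and the list is the extreme of many names, so it describes these cultures only. Among the members, the nearest to *Grb10* in the opposite sense were *Impact* (r = -0.74) and *Plagl1* (r = -0.69), and the closest pair was *Peg10* with *Zim1* (r = 0.93).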

How the data were processed

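RNA from 8 cultures was sequenced as poly(A)+ libraries (TruSeq Stranded mRNA, 50-nt single-end reads). According to the methods, the authors aligned reads to GRCm38/mm10 with TopHat 2.0.10, Bowtie 1.0.0 and Samtools 0.1.19, counted reads per gene with HTSeq 0.5.3p9 on the UCSC annotation and tested with DESeq2. The deposited values, called normalized counts, are a signal: the gene counts divided by 1 factor per library. From them whole read counts were recovered (100% of values within 0.001). Each clone had 1 library per passage, and p-values measure the spread between these libraries. Only names with a mean of at least 10 were tested (14791) by limma 3.58.1 with an intensity trend on log2(value + 1), a scale that understates changes of low genes, and p-values were adjusted by Benjamini-Hochberg at a threshold of 0.05. edgeR 4.0.16 and DESeq2 1.42.0 were run on the recovered reads, under R 4.3.3. edgeR used the same 14791 names. DESeq2 used its own filter, which left 15788 names for passage and 14486 for clones. The limma and edgeR fits were tested on simulated data. Clone numbers in the labels name the same line at both passages, and the libraries were paired by them. Deviations of the same clone had Pearson correlations of 0.271 in clone 20, 0.701 in clone 30 and 0.433 in clone 36, but 0.0956 in clone 6, below its 0.281 with clone 36 of passage 16, so that the pairing of clone 6 is in doubt. Clone 36 of passage 6 had -0.0095 with clone 6 of passage 16. Named genes were the members, some of their domain neighbours and the 10 names most correlated with *Grb10*. Genes of the imprinted, methylation and insulin or IGF lists were named if they passed a limma test or had the same direction in 4 of 4 clones. A further 4 pathway genes were picked after their values were seen (*Dnmt1*, *Uhrf1*, *Dppa3*, *Igf1r*). Members and lists were chosen with earlier results of these data known. Other pseudocounts, filters, TMM scaling and left-out libraries were tried. Exon lengths and overlaps came from GENCODE and coordinates from RefSeq. *Zfp264* and *Zim2* were not analysed here.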

Additional observations from a re-analysis of the deposited data

Results flagged for a closer look

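*Peg3* at passage 16 stood apart in 1 library. Clone 30 had 12.30 on the log2(value + 1) scale and the other 3 clones lay between 11.51 and 11.59, a gap of 0.892 of the whole range, above Dixon's critical value of 0.829 for 4 values. Clone 30 also had the highest *Peg3* count at passage 6, with no such gap. Among the 30 groups of 4 values examined, 1.5 would pass by chance.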

How the results depend on the processing

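The mean *Grb10* passage difference lay between -1.13 and -0.37 over 24 alternatives, the extremes being single libraries left out, and it moved by more than the spread between clones only at -1.13. The fits with 1 library left out had no clone term and compared unlike sets of clones. The sign of the *Grb10* difference follows from how the gene was chosen. With clones as a replicate block the difference was -0.68 as without, and its standard error was 0.145 in place of 0.548. Neither standard error gives a test, since the gene was chosen on this difference. The number of names called with passage was 1, became 0 with the replicate block, 0 without the displaced groups and 0 with both, 2 with edgeR and the block, 46 with DESeq2 and 98 with DESeq2 and the block, and lay at 1 to 26 when a clone or library was left out, 26 without clone 30. The blocked edgeR and DESeq2 fits and the block without the displaced groups were added after seeing the data. The number called between clones was 20, became 62 without the displaced groups and 1121 with DESeq2, and lay at 0 to 164 when a clone or library was left out, 0 without clone 20 and 164 without clone 6 of passage 16. For *Grb10* the limma adjusted p of 0.170 between clones became 0.0265 without the displaced groups and 0.429 without the passage term. It was 3.03e-16 with DESeq2, and 0.156 to 0.624 by limma when a clone or library was left out. For the other 9 members, 214 of 214 passage values stayed within the spread between clones. Leaving out a whole clone of 4 cannot move the mean beyond that spread, so those settings decide nothing. *Snrpn*, with a spread of 1.63, counted as unmoved while it ran from -0.46 to 0.81. Of the clone tests, 184 of 187 kept their side of the threshold, all but those of *Peg3*, *Peg10* and *Impact* with DESeq2. The sign of the mean passage difference changed in some alternatives for *Peg3* (7), *Peg10* (3), *Snrpn* (6), *Impact* (2) and *Zim1* (7). Some of these alternatives left out 1 library and so compared unlike sets of clones. The cause of the sign changes was not tested. With 4 clones and 1 library per clone and passage, the low counts of *Snrpn* and *Zim1* (5.74 to 39.6) also limit precision.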
